A study of Mus musculus with 6 samples.

Results

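The mitochondrial genome carries its own small set of genes, and all of them were examined here in mouse liver with and without LKB1. Members were every row of the deposited gene table whose symbol begins with mt-, which gave 37 of 55450 genes, namely 13 protein-coding genes, 2 rRNA genes and 22 tRNA genes, the full set that GENCODE release M21 places on mitochondrial DNA. The libraries come from the left liver lobe of 6 mice of strain C57BL/J (as spelled in the labels), 1 library per mouse. All 6 mice were injected with AAV8 Cre, an adeno-associated virus that delivers Cre recombinase, at 6 weeks of age and were 10 weeks old when the liver was taken, 4 weeks later. The 3 mice called knockout here carried LKB1 fl/fl alleles, in which Cre removes the DNA between loxP sites, and the 3 wild-type (WT) mice had unmodified LKB1. The labels name no promoter for Cre, and the sample is whole liver tissue, so cells that the virus did not reach are part of every library. LKB1 is a protein kinase, encoded by Stk11, that activates AMPK and related kinases.

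Mitochondrial DNA is a circle that is transcribed from both strands into long precursor RNAs. Transfer RNAs lie between most of the other genes, and their excision releases the mRNAs and rRNAs. The 13 protein-coding genes encode subunits of respiratory complexes I, III and IV and of the ATP synthase. Each gene is counted here as an mRNA, also where genes overlap. The complexes are built together with many subunits encoded in the nucleus, whereas the 2 rRNAs and 22 tRNAs serve the ribosomes inside the organelle. Liver is rich in mitochondria, so these transcripts take a sizeable part of a liver library.

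Total counts per library ran from 47659122 to 56147667. Stk11 was measured at 66.1, 64.2 and 69.7 CPM in WT replicates 1 to 3 and at 22.1, 14.4 and 11.4 CPM in the knockout replicates, and fell by 2.06 on the log2 scale (edgeR's quasi-likelihood test, adjusted p = 0.0167). CPM is a count scaled to a common library size, with sizes adjusted by the trimmed mean of M-values. Xist, an RNA of the inactive X chromosome, had 42472 counts in knockout replicate 1, 29243 in WT replicate 1 and at most 16 in the other 4 libraries. Those 4 libraries, in turn, held 6146 or more counts of Y-linked genes, where both replicates 1 held at most 6. The labels do not mention this difference, and results that depend on it are given within the 4 libraries with Y-linked counts as well. Of the 8 hepatocyte markers listed, all were detected and 1 was called (Tat, higher in knockout). Their summed level was 29257 to 79533 CPM over the knockout libraries, below the 99426 to 133297 CPM of WT. The list was mixed. Alb, at 57064 to 95626 CPM in WT and 10395 to 50550 CPM in knockout, held most of the WT sum. Apoa1, Ttr and Trf were also lower in every knockout library than in any WT library (log2 fold changes -2.07, -1.15 and -0.74). Serpina1e had a log2 fold change of -6.40, with overlap between the groups. Tat, Cps1 and Hnf4a were higher in every knockout library than in any WT library (log2 fold changes 1.86, 1.17 and 0.20). The part of these differences in the mitochondrial values was not tested.

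Before the values, the sequences show what the deposited counts of these genes can and cannot separate. A segment of nuclear chromosome 1 (GRCm38, 24611535 to 24616197) holds 7 annotated pseudogenes that match 7 of the 13 mitochondrial mRNAs at 99.71% identity or more, and 5 of the 7 are identical over the aligned length. A stretch of mt-Co2 as long as 1 read (76 bases, chrM:7313-7388, plus strand), shown because the same letters occur in its copy Gm28661, reads as follows.
mt-Co2: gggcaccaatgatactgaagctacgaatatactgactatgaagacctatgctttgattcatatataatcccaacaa
The other 2 pairs differ at 1 base each. In mt-Nd3 (chrM:9459-9534, plus strand, the first 76 bases) and its copy Gm28438 the base in capitals differs, the substitution T3C counted from the first base of the gene.
mt-Nd3: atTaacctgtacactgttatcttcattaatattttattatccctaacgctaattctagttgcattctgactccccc
Gm28438: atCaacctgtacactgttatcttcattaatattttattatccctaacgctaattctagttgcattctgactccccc
In mt-Co1 (chrM:6390-6465, plus strand) and its partial copy Gm29216 the differing base, again in capitals, is A1066T.
mt-Co1: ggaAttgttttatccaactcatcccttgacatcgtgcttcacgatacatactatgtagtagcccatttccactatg
Gm29216: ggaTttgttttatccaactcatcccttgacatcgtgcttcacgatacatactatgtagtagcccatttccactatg

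The expected counts, which divide a read among the genes it fits, gave most reads of several pairs to the nuclear copy. The mitochondrial gene received between 6.46% and 10.8% of the pair's counts for mt-Co2, between 6.53% and 9.69% for mt-Atp6, and between 7.27% and 14.9% for mt-Co3 over the 6 libraries. It received 18.7% to 23.98% for mt-Nd3 and 33.8% to 48.1% for mt-Nd4l. The division went the other way for mt-Co1, whose copy covers 31.3% of its length and which kept 88.9% to 92.5% of the counts, and for mt-Nd4, which kept at least 99.4% although its copy is identical over 876 bases. Nuclear copies of lower identity, from 90.7% to 97.6%, took at most 446 counts in any library, against up to 646764 for a single copy on chromosome 1. Levels of mt-Co2, mt-Atp6, mt-Co3, mt-Nd3 and mt-Nd4l as deposited are therefore given below together with the sum of gene and copy.

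**Figure D1:**
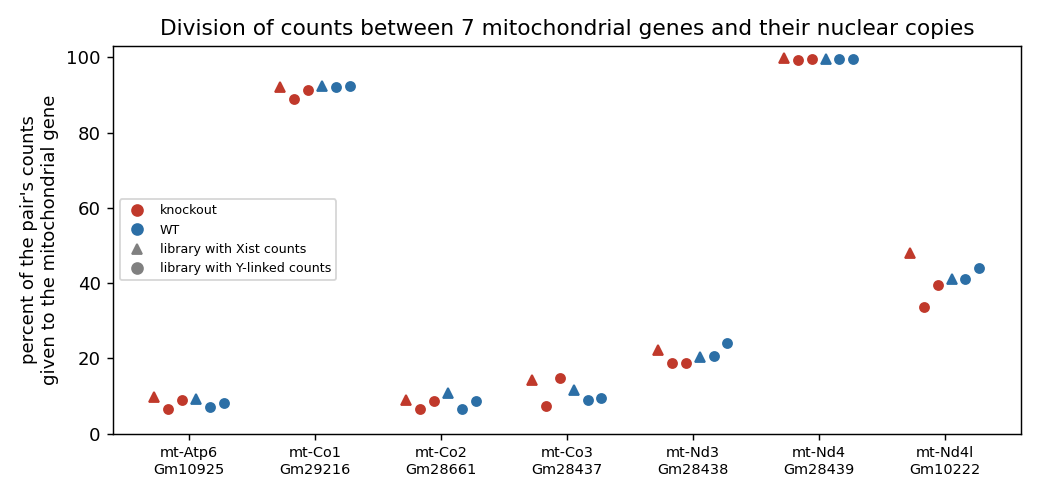
Percent of the counts of each gene-and-copy pair that the deposited table gives to the mitochondrial gene (vertical axis) for 7 pairs (horizontal axis), with 1 point per library, knockout in red and WT in blue, and triangles for the libraries with Xist counts. The points of mt-Atp6, mt-Co2 and mt-Co3 lie under 15% and those of mt-Nd4 above 99%.

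A second pair of genes shares bases within the mitochondrial genome itself. The end of mt-Atp8 and the start of mt-Atp6 overlap by 43 bases (chrM:7927-7969, plus strand), printed here with the first codon of mt-Atp6 in capitals. It is shorter than 1 read of 76 bases, so no full-length read lies wholly inside it.
mt-Atp8 and mt-Atp6: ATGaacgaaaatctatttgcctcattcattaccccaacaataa
The genes mt-Nd4l and mt-Nd4 share 7 bases in the same way. The genes mt-Nd5 and mt-Nd6 overlap by 14 bases on opposite strands, and as the labels do not state whether strand was used in counting, reads of mt-Nd6 cannot be told apart from antisense RNA at its locus.

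Mitochondrial transcripts made up a larger part of the knockout libraries. The 13 protein-coding genes held 7.56%, 8.27% and 10.03% of all counts in the knockout libraries, replicate 1 first, and 6.04%, 6.68% and 6.82% in the WT libraries. Every knockout library lay above every WT library. The means were 8.62% ± 1.27 in knockout and 6.52% ± 0.416 in WT (SD, n = 3 each), a ratio of 1.32, with an exact two-sided permutation p of 0.1, the smallest that 3 against 3 allows. With the 7 nuclear copies added the shares were 10.97%, 12.4% and 14.3% in knockout and 8.71%, 9.60% and 9.73% in WT, again without overlap and with a ratio of 1.34. Counting error is small beside this spread, since the widest 95% Wilson interval of a single library's share was 0.00826 percentage points to either side and covers counting error only.

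A share of a library also depends on everything else in it. The 50 most abundant genes outside the mt- rows held 28.0%, 22.3% and 25.8% of the counts in knockout and 31.9%, 31.5% and 30.8% in WT. Among them are the nuclear copies Gm28437, Gm28661 and Gm10925, whose reads are divided with mt-Co3, mt-Co2 and mt-Atp6. Leaving them out therefore also removes counts that may be mitochondrial. With these 50 genes left out of the total, the protein-coding share was 10.5%, 10.6% and 13.5% in knockout and 8.88%, 9.76% and 9.85% in WT, a ratio of 1.22, and the groups still did not overlap. In whole tissue, fewer cells of a type and less RNA per cell cannot be told apart.

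**Figure D2:**
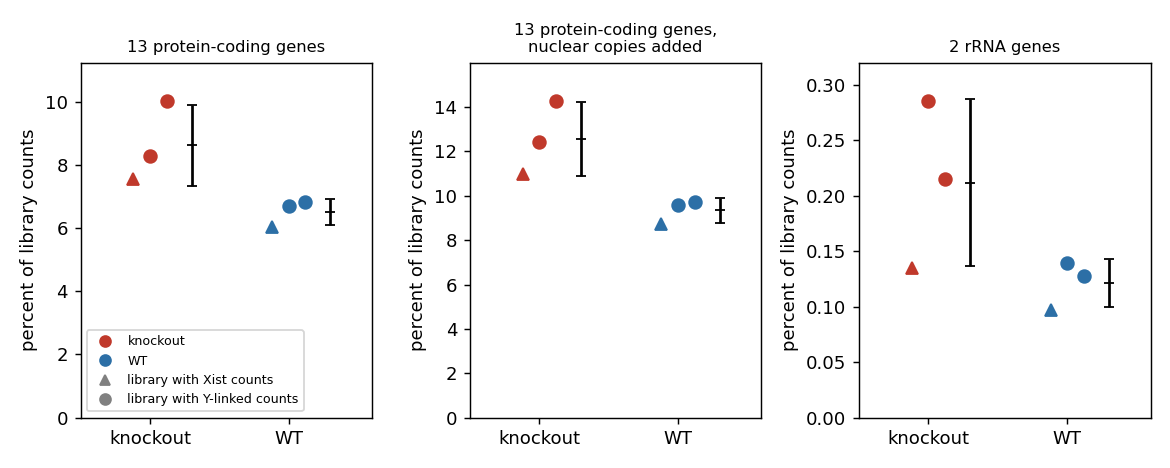
Percent of library counts (vertical axes, from 0) held by the 13 protein-coding genes, by the same genes with 7 nuclear copies added, and by the 2 rRNA genes, with 1 point per library and the mean and SD in black (n = 3). Knockout points lie above all WT points in the first and second panels, and overlap with WT in the third, where knockout replicate 1 has 0.135% and WT replicate 2 has 0.139%.

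Gene by gene, 15 of the 37 members passed the filter on low counts, all 13 mRNAs and both rRNAs. None of the 15 passed the threshold (adjusted p under 0.05) when edgeR tested 14539 genes, of which 3.37% passed in either direction and 2.15% as higher. Before adjustment, 5 of the 15 (mt-Nd6, mt-Nd3, mt-Atp8, mt-Rnr1 and mt-Nd1) were under 0.05, all higher, against 26.3% of all genes in either direction and 14.6% as higher. DESeq2 called those same 5 genes as higher, with 15.8% of all genes called, and limma voom called 0 of the 15 and 2.97% of all genes. All 15 fitted log2 fold changes were above 0, which was so for 51% of all genes, and the median of the 13 mRNAs was 0.52 against 0.01 over all genes tested. The 3 knockout libraries lay above the 3 WT libraries for 7 of the 15 genes, and no gene showed the opposite separation, while 32.4% of all genes had no overlap in either direction and 16.9% as higher.

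**Figure D3:**
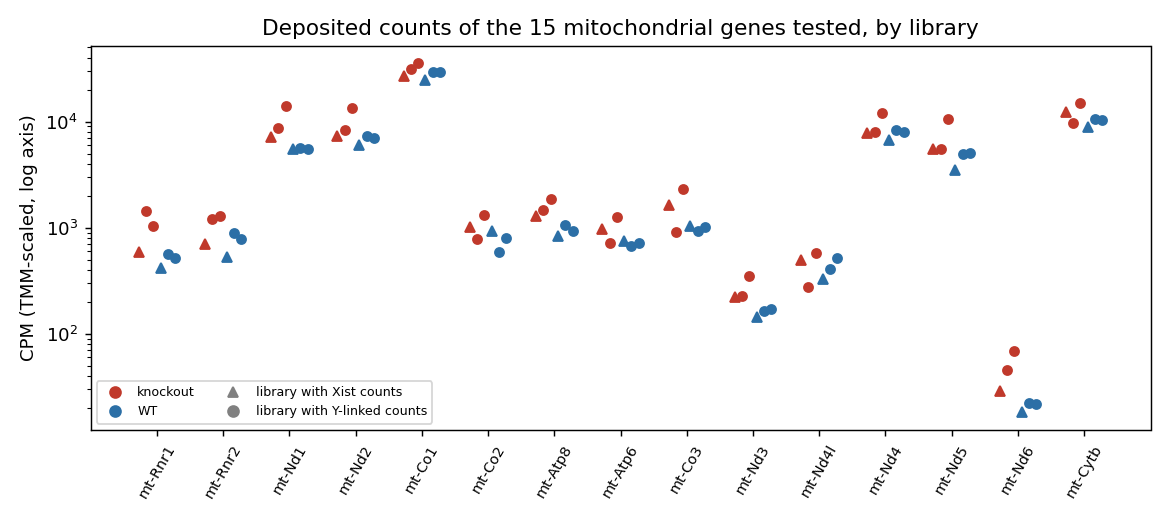
CPM on a log axis for the 15 mitochondrial genes that passed the filter, in genome order, with 1 point per library (knockout red, WT blue, triangles for libraries with Xist counts). The levels run from 18.2 CPM for mt-Nd6 in WT replicate 1 to 35351 CPM for mt-Co1 in knockout replicate 3.

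Complex I, the NADH dehydrogenase through which electrons of NADH enter the chain, takes 7 of its subunits from mitochondrial DNA. The knockout libraries lay above WT for 5 of these 7, mt-Nd1, mt-Nd2, mt-Nd3, mt-Nd5 and mt-Nd6, and overlapped with WT for mt-Nd4 and mt-Nd4l. The median log2 fold change of the 7 was 0.69.

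The widest difference of any member was in mt-Nd6, the only mRNA of the set on the minus strand. Its WT levels were 18.2, 22.4 and 22.0 CPM, and its knockout levels were 28.9, 45.9 and 69.4 CPM. All knockout values were above WT, and knockout replicate 1 was closest to it. The fitted log2 fold change of 1.20 ± 0.305 (SE) missed the threshold (edgeR adjusted p = 0.0749). A fit of only the 4 Y-linked libraries gave 1.37 (edgeR adjusted p = 0.00714), where 33.3% of all genes were called, and with library state as a term it was 1.14 (edgeR adjusted p = 0.0365), in a fit that called 10.3%. Per 1000 counts of the other 12 mRNAs, mt-Nd6 had 0.397, 0.603 and 0.642 counts in knockout and 0.307, 0.320 and 0.317 in WT, a separation that does not depend on how libraries are scaled (exact two-sided permutation p = 0.1).

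The gene mt-Nd1, for a core membrane subunit, had 7102, 8620 and 13876 CPM in knockout and 5507, 5620 and 5572 CPM in WT. WT libraries were nearly equal, at 5566 ± 56.7 CPM (SD, n = 3), and knockout replicate 3 stood highest. The log2 fold change was 0.83 ± 0.315 (SE; edgeR adjusted p = 0.159) in all libraries. It was 1.01 (adjusted p = 0.0376) without knockout replicate 1, where 30.2% of all genes were called, and 0.50 (adjusted p = 0.346) without knockout replicate 3. In the 4 Y-linked libraries it was 1.00 (edgeR adjusted p = 0.0697), and with library state as a term 0.79 (edgeR adjusted p = 0.133). For mt-Nd3, a small subunit whose reads are divided with Gm28438, the values were 222, 229 and 348 CPM against 145, 163 and 171 CPM (log2 fold change 0.74 ± 0.215 (SE), edgeR adjusted p = 0.0957). Summed with its copy, mt-Nd3 had 1006, 1221 and 1865 CPM in knockout and 708, 787 and 715 CPM in WT, so that the groups were separate in both forms, and the log2 fold change of the sum was 0.89.

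The other complex I genes showed smaller differences or overlapped. The values of mt-Nd2 were 7337, 8315 and 13453 CPM in knockout against 5972, 7302 and 7035 CPM in WT, which left knockout replicate 1 just above WT replicate 2 (log2 fold change 0.52, edgeR adjusted p = 0.331). For mt-Nd5, the longest member at 1824 bases, they were 5458, 5548 and 10669 CPM against 3463, 4930 and 5047 CPM (0.69, adjusted p = 0.263). Knockout replicate 3 alone was far above the rest for both, and without it the log2 fold changes were 0.21 for mt-Nd2 and 0.30 for mt-Nd5. The mt-Nd4 libraries overlapped, at 6635 to 8326 CPM in WT and 7863 to 11928 CPM in knockout. For mt-Nd4l the ranges were 275 to 578 CPM and 328 to 520 CPM, and its log2 fold change of 0.10 was -0.12 when fitted on the 4 Y-linked libraries. Summed with its copy Gm10222, mt-Nd4l had 1025, 816 and 1469 CPM in knockout against 796, 992 and 1183 CPM in WT, still with overlap (0.16, edgeR adjusted p = 0.752).

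In complex III, the cytochrome bc1 complex, cytochrome b is the single mitochondrially encoded subunit. Its gene mt-Cytb had 12287, 9749 and 15107 CPM in knockout and 8939, 10569 and 10314 CPM in WT. Knockout replicate 2 lay between the WT libraries, and the difference was within the spread (log2 fold change 0.32 ± 0.278 (SE), edgeR adjusted p = 0.502).

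Cytochrome c oxidase, complex IV, reduces oxygen and has 3 mitochondrially encoded subunits that form its catalytic core. The most abundant member, mt-Co1, had 27115, 31615 and 35351 CPM in knockout and 24604, 29636 and 29349 CPM in WT. The groups overlapped, and the log2 fold change was smaller than its error, at 0.17 ± 0.297 (SE; edgeR adjusted p = 0.746). As deposited, mt-Co2 had 1012, 774 and 1330 CPM against 925, 595 and 801 CPM, and mt-Co3 had 1633, 902 and 2324 CPM against 1046, 934 and 1006 CPM, with overlap in both genes.

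Adding the copies of mt-Co2 and mt-Co3 changed this picture. The sum of mt-Co2 and Gm28661 was 11286, 11986 and 15061 CPM in knockout and 8583, 9167 and 9247 CPM in WT. The sum of mt-Co3 and Gm28437 was 11514, 12413 and 15636 CPM against 8987, 10556 and 10513 CPM. Both sums separated the groups, and knockout replicate 2, which had been lowest of the 6 libraries for mt-Co3 alone, was above every WT library in the sum. The log2 fold change of mt-Co3 was 0.70 as deposited and 0.40 with the copy, and neither form passed the threshold (edgeR adjusted p = 0.242 and 0.375).

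The ATP synthase has 2 mitochondrially encoded subunits, both in the membrane part that conducts protons. No nuclear copy of mt-Atp8 was found among annotated transcripts, and nuclear sequence without annotation was not searched. The gene had 1292, 1472 and 1883 CPM in knockout and 843, 1060 and 937 CPM in WT. The groups did not overlap, and the fit gave a log2 fold change of 0.71 ± 0.220 (SE; edgeR adjusted p = 0.108). In the 4 Y-linked libraries it was 0.74 (edgeR adjusted p = 0.0488), in a fit that called 33.3% of all genes. As deposited, mt-Atp6 had 970, 712 and 1268 CPM against 757, 665 and 714 CPM and overlapped. Its sum with Gm10925 was 10013, 10913 and 14229 CPM against 8196, 9298 and 8748 CPM and did not overlap. With all 7 copies added before the fit, 10 of the 15 genes had no overlap in place of 7, all as higher. In edgeR 0 of 15 passed the threshold, and 5 had an unadjusted p-value under 0.05. Of the 14532 genes in that fit, 490 passed and 3816 had an unadjusted p-value under 0.05. In the fit of deposited counts, 32.4% of all genes had no overlap in either direction and 16.9% as higher.

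**Figure D4:**
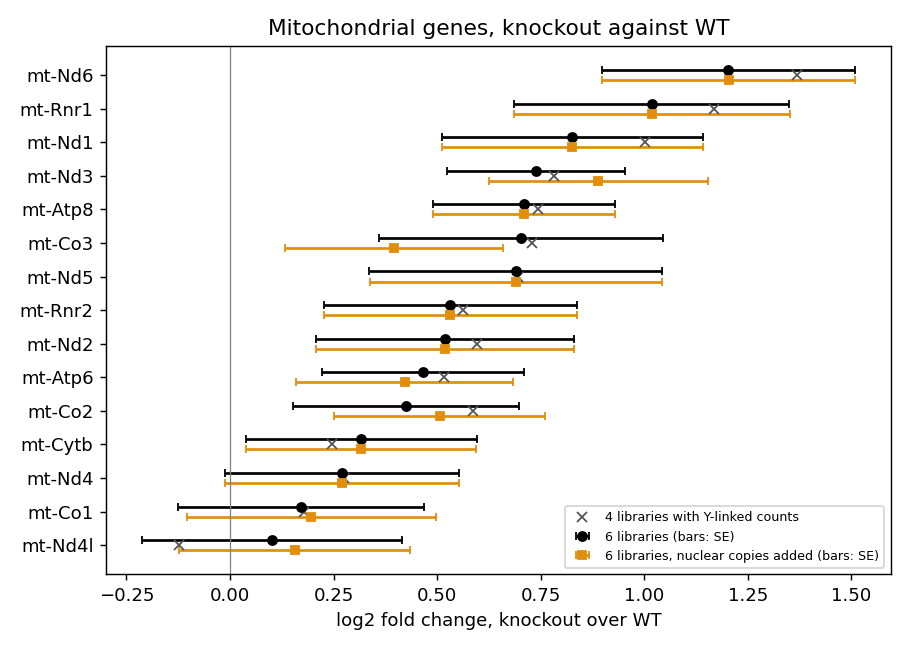
Log2 fold change of knockout over WT (horizontal axis) for 15 mitochondrial genes, from all 6 libraries as deposited (black, bars are SE), with nuclear copies added (orange, bars are SE) and from the 4 libraries with Y-linked counts (crosses). Points run from mt-Nd4l at 0.10 to mt-Nd6 at 1.20 in the deposited form, and the orange point of mt-Co3 lies at 0.40 where the black one is at 0.70.

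Shares within the mitochondrial mRNAs were compared next, since they do not depend on the rest of the library. As a percent of all protein-coding mitochondrial counts, mt-Nd1 held 9.75%, 11.3% and 12.8% in knockout against 9.30%, 8.00% and 8.02% in WT. The share of mt-Co1 was 37.2%, 41.5% and 32.7% in knockout and 41.6%, 42.2% and 42.2% in WT, lower in every knockout library though only just so in replicate 2. The share of mt-Nd4 was likewise lower, at 10.7% ± 0.315 against 11.5% ± 0.322 (SD, n = 3). In all, 5 genes (mt-Nd1, mt-Nd3, mt-Nd5, mt-Nd6 and mt-Atp8) had a higher share in every knockout library than in any WT library and 2 a lower one. With the copies added this was so for 6 of the 7, and mt-Nd5 overlapped. Each separated gene had an exact two-sided permutation p of 0.1, the smallest possible, and 0.186 after Benjamini-Hochberg adjustment over the 13 genes, so no share could pass the threshold in this design. Within each library the 13 shares add up to the whole, and a higher share of some genes lowers that of others.

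Levels per length are compared between genes only with the copies added. They are CPM divided by annotated length, with no correction for read or fragment length. The protein-coding genes run from 204 to 1824 bases, and the effect of length on the order was not tested. On the scale of CPM per kilobase in WT, mt-Co1 was highest at 19531 ± 1973 (SD, n = 3), above the ranges of all others. It was followed by mt-Co2 (13157 ± 530), mt-Atp6 (12845 ± 808) and mt-Co3 (12779 ± 1139), which did not differ beyond their ranges. Below them stood mt-Cytb at 8688 ± 767, then mt-Nd2, mt-Nd1, mt-Nd4 and mt-Atp8 between 6521 and 4641 with overlapping neighbours, and then mt-Nd4l, mt-Nd5 and mt-Nd3 between 3334 and 2116. The rRNAs mt-Rnr1 and mt-Rnr2, at 527 ± 81.2 and 465 ± 117 per kilobase, overlapped with each other and lay below the 12 plus-strand mRNAs. Lowest was mt-Nd6 at 40.2 ± 4.56. These libraries were made from RNA captured on oligo-dT beads, so the levels are those of captured RNA, and a low level of a transcript with a short or absent poly(A) tail says nothing about its abundance in the cell.

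The rRNAs held far fewer counts than the mRNAs. Together mt-Rnr1 and mt-Rnr2, the RNAs of the small and large subunits of the mitochondrial ribosome, made up 0.135%, 0.286% and 0.215% of the counts in knockout and 0.0970%, 0.139% and 0.128% in WT, with overlap and an exact two-sided permutation p of 0.2. For mt-Rnr1 the levels were 594, 1423 and 1044 CPM in knockout and 418, 570 and 523 CPM in WT, without overlap. The log2 fold change was 1.02 ± 0.332 (SE; edgeR adjusted p = 0.119) over 6 libraries and 1.17 (adjusted p = 0.0136) over the 4 with Y-linked counts, where 33.3% of all genes were called. For mt-Rnr2 they were 706, 1209 and 1275 CPM against 532, 893 and 783 CPM, with overlap (0.53, adjusted p = 0.312). The number of mt-Rnr1 counts per mt-Rnr2 count was 0.841, 1.177 and 0.819 in knockout and 0.787, 0.638 and 0.668 in WT. All 3 knockout ratios were above the WT ratios (exact two-sided permutation p = 0.1).

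Transfer RNAs were all but absent from the table. Of the 22 tRNA genes, 21 had 0 counts in all 6 libraries, and mt-Tm, for the methionine tRNA, had 1 count in knockout replicate 1 and 0 elsewhere. A count of 0 allows up to 3 counts, or 5.34e-06% to 6.29e-06% of a library's counts. Their annotated lengths run from 59 to 75 bases, below the read length of 76 bases, as the whole of mt-Tm (chrM:3845-3913, plus strand, 69 bases) shows.
mt-Tm: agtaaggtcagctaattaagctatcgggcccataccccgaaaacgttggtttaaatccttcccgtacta
No comparison of tRNA levels between knockout and WT was possible.

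The response of the mitochondrial genes was compared with the nuclear subunits of the same complexes and of complex II. The lists held 75 nuclear genes, of which 74 were tested. All 74 had a log2 fold change above 0 and a median of 0.67, 69 had no overlap between groups, 71 had an unadjusted p-value under 0.05, and 5 passed the threshold of adjusted p in edgeR, all as higher in knockout. Over all genes tested, 32.4% had no overlap, 26.3% had an unadjusted p-value under 0.05 and 3.37% were called. The medians were 0.63 for 36 nuclear complex I subunits beside 0.69 for the 7 mitochondrial ones, 0.68 for 9 nuclear complex III subunits beside 0.32 for mt-Cytb, 0.78 for 11 nuclear complex IV subunits beside 0.42 for the 3 mitochondrial ones, and 0.80 for 14 nuclear ATP synthase subunits beside 0.59 for the 2 mitochondrial ones. Complex II, which has no mitochondrially encoded subunit, had a median of 0.75 over 4 genes. The mitochondrial medians are those of the deposited counts. With the copies added, the log2 fold changes were 0.51 for mt-Co2, 0.40 for mt-Co3 and 0.42 for mt-Atp6. The difference between the genomes was not tested.

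Among the nuclear subunits that passed, Uqcr10 of complex III had 119, 199.7 and 223 CPM in knockout and 53.2, 60.1 and 58.8 CPM in WT, and rose by 1.66 ± 0.244 on the log2 scale (edgeR adjusted p = 0.0261). Cox7b and Cox5b of complex IV rose by 1.26 and 0.96, and Atp5g1 and Atp5j2 of the ATP synthase by 1.29 and 1.05, with adjusted p-values between 0.0386 and 0.048. Each of these 5 genes was higher in 3 of 3 knockout libraries, and knockout replicate 1 was the lowest of the 3 for each of them.

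**Figure D5:**
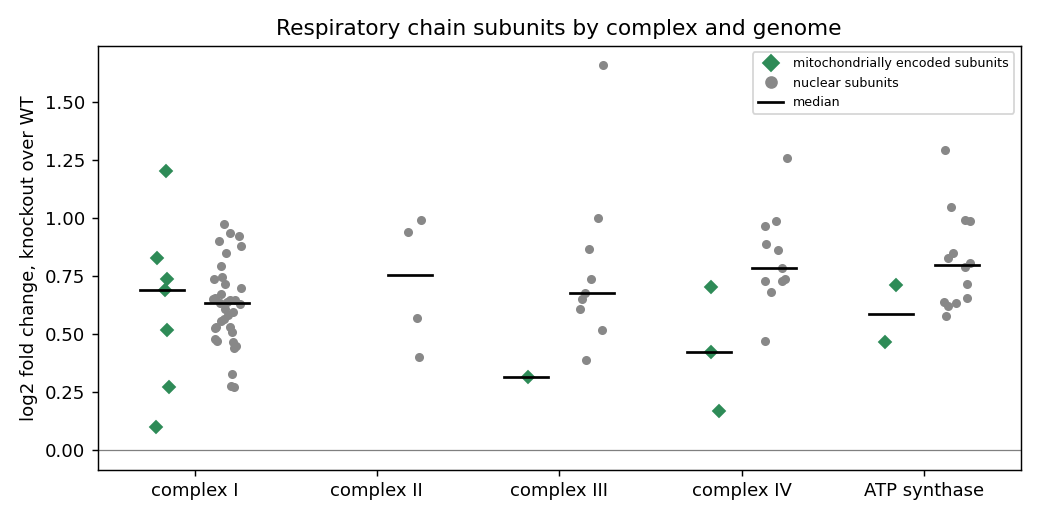
Log2 fold change of knockout over WT (vertical axis) for the subunits of each respiratory complex, with green diamonds for mitochondrially encoded subunits, grey points for nuclear ones and black lines for medians. Values are from deposited counts, without nuclear copies added. All points lie above 0, from 0.10 for mt-Nd4l to 1.66 for Uqcr10.

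Replication, transcription and processing of the mitochondrial genome depend on nuclear genes, and most of these differed little. Of 102 genes in 6 lists (mitochondrial DNA maintenance, transcription, RNA processing and stability, regulators of biogenesis, translation factors and mitochondrial aminoacyl-tRNA synthetases), 3 passed the threshold in edgeR, all higher in knockout and all from the regulators. That share is near the 3.37% of all genes called in either direction and the 2.15% called as higher. The median log2 fold change of the 102 was 0.14, and 73 were above 0, against 51% of all genes. Ppargc1a, a coactivator of mitochondrial biogenesis, rose from 12.3, 5.75 and 4.28 CPM in WT to 24.7, 75.2 and 76.4 CPM in knockout (log2 fold change 2.98 ± 0.565 (SE), adjusted p = 0.0446). Esrra, a nuclear receptor that works with it, had 14.3, 16.7 and 17.4 CPM in WT and 26.95, 64.2 and 48.3 CPM in knockout (1.53 ± 0.302, adjusted p = 0.048). Myc, a transcription factor of growth genes, had 3.02, 2.04 and 2.14 CPM in WT and 11.6, 41.8 and 19.9 CPM in knockout (3.35 ± 0.489, adjusted p = 0.0258). In all 3 genes knockout replicate 1 was the lowest knockout library and still above WT. These calls hold for the 6 libraries. With 1 library left out, 0 of the 102 were called without knockout replicate 3, WT replicate 2 or WT replicate 3. The highest number was 29, without knockout replicate 1, in a fit that called 30.2% of all genes.

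Transcripts of the listed genes for DNA maintenance, transcription, and RNA processing and stability did not pass the threshold, and protein was not measured. Tfam, which packages the genome and starts transcription, had 43.7, 44.9 and 49.3 CPM in knockout and 43.6, 41.6 and 38.9 CPM in WT (log2 fold change 0.15, edgeR adjusted p = 0.424), with every knockout library just above every WT library. Polrmt, the mitochondrial RNA polymerase, had 19.5, 29.8 and 23.98 CPM against 17.1, 20.8 and 22.4 CPM (0.28). Lrpprc, which stabilizes mitochondrial mRNAs, had 136, 167 and 194 CPM against 119, 147 and 139.6 CPM (0.29). The list of RNA processing and stability genes had a median of 0.25 and ran from -0.59 to 0.95. Of its 33 genes, 29 were above 0, against 51% of all genes. In edgeR, 10 had an unadjusted p-value under 0.05, a share near the 26.3% of all genes in either direction. As higher there were 9, against 14.6% of all genes. The lists of transcription genes (11) and of DNA maintenance genes (16) had medians of 0.09 and 0.00.

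The 2 libraries with Xist counts and the 4 with Y-linked counts gave the same direction for most members. From CPM, the log2 ratio of knockout replicate 1 to WT replicate 1 was above 0 for all 15 genes, at 0.67 for mt-Nd6, 0.62 for mt-Atp8 and mt-Nd3, 0.51 for mt-Rnr1 and 0.37 for mt-Nd1, and this pair has no replicate check. Over the 4 Y-linked libraries the ratios of these 5 genes were 1.34, 0.74, 0.76, 1.16 and 0.97, and mt-Nd4l alone was below 0, at -0.21. For the interaction of group with this state, edgeR called 0 of the 15 genes, against 2.9% of all genes, and 0 of 15 were under 0.05 before adjustment, against 20.9%.

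Markers of the other cell types of the liver were summed per library. The 7 endothelial markers summed to 176 to 245 CPM in WT and to 92.5 to 146 CPM in knockout, all 7 had negative log2 fold changes, and 0 passed the threshold. The summed levels of macrophage (6 genes), stellate cell (6), cholangiocyte (5), lymphocyte (5) and erythroid (5) markers overlapped between the groups over all 6 libraries. Among the 4 Y-linked libraries, 4 of these 5 sums were lower in both knockout libraries than in both WT libraries. They were macrophage (129 and 99.8 against 138 and 189 CPM) and stellate cell (136 and 94.7 against 158 and 186 CPM). The others were cholangiocyte (24.8 and 33.6 against 39.5 and 46.8 CPM) and erythroid (42.0 and 58.6 against 432 and 311 CPM). Lymphocyte sums overlapped. Spp1 held most of the cholangiocyte sum, at 20.5 and 26.9 against 34.9 and 41.4 CPM. Krt19, Krt7, Epcam and Sox9 overlapped, and the cholangiocyte list had a median log2 fold change of 0.15 in these 4 libraries. Of the macrophage markers, Marco was higher in both knockout libraries (12.2 and 9.15 against 5.01 and 6.01 CPM). Cd5l overlapped, and Clec4f, Adgre1, Vsig4 and Csf1r were lower. Of the 4 neutrophil markers, 2 were tested, with sums of 0.237 to 0.347 CPM in WT and 0.573 to 0.738 CPM in knockout. No defining marker of these lists was at 0 in all 6 libraries. The part of cell composition in the mitochondrial values was not tested.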

How the data were processed

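The authors deposited 1 table of expected counts per gene with 1 column per mouse; the submitters' processing notes name bcl2fastq 2.17, cutadapt 1.18, STAR 2.7.0f, RSEM 1.3.1 and the build mm9, without roles. All 55450 identifiers and symbols matched GENCODE M21 (GRCm38), which supplied coordinates, gene types and sequences, so the build of the notes and that of the table differ. Per library 4.93% to 5.47% of values were not whole (tolerance 1e-06). Poly(A) RNA was read as paired reads of 76 bases, per the labels' protocols.

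Counts were rounded, filtered by filterByExpr of edgeR 4.0.16 (14539 genes left), scaled by TMM and tested by the quasi-likelihood test with group as the only term, adjusted by Benjamini-Hochberg (threshold 0.05). SE is the log2 fold change over the root of F. Shares were compared by exact permutation over samples. Nuclear copies were found with blastn 2.17.0 against M21 transcripts (identity of at least 99% over at least 200 bases), and adding them to their genes was chosen after seeing the data. DESeq2 1.42.0 and limma 3.58.1 (R 4.3.3) were alternatives. The fits were tested on simulated data.

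Members and lists were chosen with earlier results of these data known. Named from the lists were genes past the threshold, at most 5 a list, plus Tfam, Polrmt, Lrpprc, Ppargc1a and Stk11. Of the lists, hepatocyte markers had 1 of 8 called (Tat, higher), mitochondrial chaperones and proteases 0 of 11 (median log2 0.37) and the nuclear pseudogenes 0 of 9 tested (0.42). Replicates are separate mice, none a repeat of another (lowest chi-square per degree of freedom 29.0), and 0 columns lacked a sample.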

Additional observations from a re-analysis of the deposited data

How the results depend on the processing

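Fitted differences were computed under 17 alternatives per gene. Of the 15 mitochondrial genes, 14 kept a positive log2 fold change in all 17, and mt-Nd4l turned to -0.12 in the 4 Y-linked libraries, -0.12 without knockout replicate 3 and -0.05 without WT replicate 1 (0.36 at most, without knockout replicate 2). The number of the 15 called was 5 in DESeq2, 4 in the 4 Y-linked libraries and 1 (mt-Nd6) with library state as a term, 0 to 5 when 1 library was left out (5 without knockout replicate 1), and 0 under the other alternatives. Over all genes, 490 were called, against 2290 in DESeq2, 1504 with library state as a term, 4847 in the 4 Y-linked libraries and 6 (without WT replicate 2) to 4473 (without knockout replicate 1) with 1 library left out. With no TMM factors, 380 of the called genes were higher and 131 lower, where TMM gave 313 and 177. With the replicate block, 105 genes were called, 0 of the 15 mitochondrial genes and 0 of the 102 machinery genes; the labels give no pairing, and same-numbered libraries deviated together with correlations of 0.156, 0.041 and 0.0832, and not every library correlated best with its own number. Of the 102 machinery genes, 3 were called, against 12 in DESeq2, 28 in the 4 Y-linked libraries and 0 to 29 with 1 library left out. The share of all genes called was 3.37% in the main fit, 15.8% in DESeq2 and 10.3% with library state as a term. It was 33.3% in the 4 Y-linked libraries and 30.2% without knockout replicate 1. The median of the 13 mRNAs (0.52) ran from 0.24 (without knockout replicate 3) to 0.68 (without knockout replicate 1). The difference in percent of counts between knockout and WT was 2.10 points for mRNAs. With 1 library left out, it ran from 1.40 (without knockout replicate 3) to 2.63, and for all members from 1.49 to 2.76. With the nuclear copies added, it was 3.22 for mRNAs and 3.31 for all members. For rRNAs the difference was 0.0904, and it ran from 0.0535 (without knockout replicate 2) to 0.129 with 1 library left out. For tRNAs it rests on 1 count and was 0 in the 4 Y-linked libraries and 0 to 8.91e-07 with 1 library left out. The difference in share of mRNA counts changed sign for 3 genes when 1 library was left out: for mt-Co2 it was -0.065 points without knockout replicate 1 and -0.146 without WT replicate 2 (highest 0.212), for mt-Atp6 -0.031 and -0.00678 (highest 0.168), and for mt-Cytb 0.421 without knockout replicate 2 (lowest -1.62). The interaction with library state had 421 genes, and 701 with no filter on low counts. The cause of these changes was not tested.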
